A study of Mus musculus with 12 samples.

Results

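The Hox genes are 39 rows of the deposited gene table, chosen as every row whose symbol is Hox, a cluster letter from a to d and a paralog number. They are 39 of 23358 rows, and 19 of them are among the 13534 rows with enough counts to be tested. RNA was sequenced from mesenchymal stem cells of mouse bone marrow, adherent stromal cells grown in culture, in 12 libraries, 3 in each of 4 groups. The groups were untreated cells (Ctrl), cells given CK666 (CK), cells given cytochalasin D (CytoD) and cells given both (CytoD+CK). Treatment lasted 24 h. Cytochalasin D caps actin filaments and blocks their growth, and CK666 inhibits the Arp2/3 complex, which starts branched actin filaments. The sources used here give no dose, mouse strain, age or vehicle. Nor do they tell what a replicate was (an animal, an isolation or a culture dish), so p-values measure library-to-library spread only, and that spread may be technical.

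Hox genes encode homeodomain transcription factors that set position along the head-to-tail axis and along the limb. They lie in 4 clusters, and within a cluster the order along the chromosome follows the order of expression along the body: low paralog numbers act toward the head, high numbers toward the tail and the tip of the limb. Adult mesenchymal cells keep a Hox pattern that reflects where in the skeleton they came from, and genes with the same number in different clusters (paralogs) have partly shared roles.

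The HoxA and HoxC clusters were on in these cells and the HoxB and HoxD clusters were at or near background. Paralogs were therefore at opposite ends of the scale, and the 250 bases upstream of the start of 2 such pairs are shown to set an expressed gene beside its near-silent relative. Sequences are from RefSeq (GRCm38.p6), 5' to 3' on the strand of the gene, with each CG dinucleotide in capitals. The levels beside them are means in Ctrl in CPM per kb (read counts scaled to a common library total and divided by gene length in kilobases).
Hoxa11 (chr6:52245811-52246060, minus strand, 29.8 CPM per kb): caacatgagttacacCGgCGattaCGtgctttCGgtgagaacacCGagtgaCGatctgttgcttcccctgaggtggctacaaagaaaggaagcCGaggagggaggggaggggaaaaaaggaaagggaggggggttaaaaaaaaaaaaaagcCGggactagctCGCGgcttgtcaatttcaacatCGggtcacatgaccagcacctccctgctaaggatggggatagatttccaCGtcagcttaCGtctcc
Hoxd11 (chr2:74682073-74682322, plus strand, 0 counts in Ctrl): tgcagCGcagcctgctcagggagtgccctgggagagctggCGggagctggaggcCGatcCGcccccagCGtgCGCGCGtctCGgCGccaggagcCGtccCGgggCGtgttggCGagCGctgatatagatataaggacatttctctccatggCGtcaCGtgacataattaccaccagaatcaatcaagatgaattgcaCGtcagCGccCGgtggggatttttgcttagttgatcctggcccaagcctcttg
Hoxa13 (chr6:52260881-52261130, minus strand, 14.5 CPM per kb): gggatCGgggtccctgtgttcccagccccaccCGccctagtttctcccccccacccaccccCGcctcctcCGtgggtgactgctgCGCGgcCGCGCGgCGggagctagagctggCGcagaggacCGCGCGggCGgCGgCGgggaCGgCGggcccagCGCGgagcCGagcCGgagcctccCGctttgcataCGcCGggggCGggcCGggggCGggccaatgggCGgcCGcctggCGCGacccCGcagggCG
Hoxd13 (chr2:74667975-74668224, plus strand, 0 counts in Ctrl): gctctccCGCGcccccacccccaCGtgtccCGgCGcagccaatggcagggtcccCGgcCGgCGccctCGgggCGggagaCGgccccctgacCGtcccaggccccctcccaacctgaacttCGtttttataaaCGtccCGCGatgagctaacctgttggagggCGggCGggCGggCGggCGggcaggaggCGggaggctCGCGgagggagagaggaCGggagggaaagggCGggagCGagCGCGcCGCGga
CG, which reads the same on both strands, occurs 13 times upstream of Hoxa11, 20 times upstream of Hoxd11, 35 times upstream of Hoxa13 and 31 times upstream of Hoxd13. Promoter entries were found for 22 of 39 Hox genes. CG was present in all 10 entries of tested Hox genes, in all 12 of untested ones and in 91.8% of 27018 genes (median of all genes 6 sites). The number of CG sites had overlapping ranges in tested (3 to 35) and untested (3 to 31) Hox genes. It is a description of sequence and no measure of methylation.

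Levels between genes are compared only per length. The classes use the authors' RPKM (reads scaled for gene length and library total), with a gene called expressed at a Ctrl mean of 1 or more, low from 0.1 to 1, and background below 0.1. Changes and the values per library use CPM per kb, scaled for library size and composition (TMM). Libraries held 48930210 to 69269716 gene counts, and every count in the table was even. CK replicate 3 stood apart: its median absolute log2 difference from CK replicates 1 and 2 was 0.249 and 0.238, against 0.113 between those and 0.0707 to 0.127 in the other groups. Of 17 markers of marrow stromal cells 16 were tested, and 11 had a Ctrl mean of 1 or more CPM per kb. The summed level of the 17 was 1777 to 2333 CPM per kb in Ctrl, 1202 to 1520 in CK, 3245 to 3641 in CytoD and 1319 to 1364 in CytoD+CK. Most of that was Cxcl12, a chemokine of marrow stroma. Lepr, Thy1, Nt5e and Alcam, also used to define such cells, were near 0 in Ctrl (0.0914, 0.0144, 0.0446 and 0.0826 CPM per kb). Of the blood-cell markers, Ptprc, Emr1, Tyrobp and Cd3e had no counts, but others did. Among the 12 macrophage and myeloid rows 6 were tested, and 3 had a Ctrl mean of 1 or more CPM per kb. Among the 14 erythroid, lymphoid and blood stem cell rows 2 were tested, and 1 reached that level. The summed macrophage and myeloid list (12 rows, 3 without counts) was 6.53 to 7.45 in Ctrl, 6.09 to 8.36 in CK, 9.46 to 10.6 in CytoD and 6.71 to 7.74 in CytoD+CK. The endothelial list (9 rows, 2 without counts) was 0.262 to 0.384, 0.168 to 0.248, 0.381 to 0.442 and 0.385 to 0.503 in the same order. The erythroid, lymphoid and blood stem cell list (14 rows, 6 without counts) was 3.33 to 6.21 in Ctrl, 13.5 to 21.3 in CK, 32.6 to 35.1 in CytoD and 27.2 to 38.0 in CytoD+CK, nearly all of it Kit. The part of these levels in the Hox results was not tested, and fewer cells of a type and less RNA per cell cannot be told apart in such bulk RNA.

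In the HoxA cluster (chromosome 6) 8 of 11 genes were expressed in Ctrl and 3, among them Hoxa2 and Hoxa4, were low. In the HoxC cluster (chromosome 15, 102921131 to 103036852, GRCm38) 6 of 9 were expressed, Hoxc5 and Hoxc8 were low, and Hoxc12 was at background. That made 14 expressed Hox genes, or 15 by CPM per kb. HoxA gave 61.4% and HoxC 38.5% of the summed Hox level in Ctrl.

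The highest levels were those of Hox genes that pattern the tail end and the limb. Hoxa11, which patterns the middle segment of the limb, was at 30.3, 30.4 and 28.9 CPM per kb in the 3 Ctrl libraries. Hoxa10, which patterns lumbar vertebrae and the upper limb segment, was at 28.9, 26.7 and 27.6, and Hoxc10, which acts in the lumbar region and hindlimb, at 25.0, 26.4 and 26.98. Libraries overlapped between Hoxa11 and Hoxa10 and between Hoxa10 and Hoxc10, but every Hoxa11 value lay above every Hoxc10 value. Hoxa13, required for the hand and foot plate and the urogenital tract, followed at 14.5 ± 0.16 (SD, n = 3), and Hoxc13, known for its role in hair and nails, at 12.4 ± 0.37. These 5 genes made up 78.7% ± 0.37 of the summed Hox level in Ctrl, 76.0% ± 1.2 in CK, 75.6% ± 1.1 in CytoD and 75.4% ± 1.5 in CytoD+CK. In RPKM, 89.0% of all rows lay at or below Hoxa11 in Ctrl.

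Below them Hoxc11 (7.39 CPM per kb), Hoxc9 (4.21) and Hoxa9 (3.60) were each apart from their neighbours in the order. Hoxa7, Hoxa3, Hoxa5, Hoxc6 and Hoxa6 (2.77 to 1.69) formed a run in which each overlapped the next. Hoxc4 (1.49) came below them. Hoxc5, Hoxa2, Hoxc8 and Hoxa4 (0.415 to 0.173) again overlapped from one to the next. The low numbers therefore added little: groups 1 to 8 gave 12.4% ± 0.50 of the HoxA level and 7.37% ± 0.24 of the HoxC level in Ctrl.

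That share was higher in each treated library than in every Ctrl library, except for HoxA in CytoD+CK replicate 2. There it was 11.99%, below every Ctrl library. For HoxA it was 12% to 12.98% in Ctrl, 13.5% to 14.8% in CK and 14.8% to 15.7% in CytoD, with no overlap with Ctrl, and 11.99% to 14.9% in CytoD+CK, which overlapped Ctrl. For HoxC it was 7.10% to 7.54% in Ctrl, 8.72% to 9.67% in CK, 8.13% to 9.40% in CytoD and 7.57% to 8.57% in CytoD+CK. The summed HoxA level of groups 1 to 8 was 10.7 CPM per kb in Ctrl, 11.1 in CK, 13.4 in CytoD and 10.7 in CytoD+CK, while that of groups 9 to 13 was 75.7, 66.5, 74.1 and 66.9 in the same order. For HoxC the sums were 3.99, 4.62, 4.62 and 3.97 for groups 1 to 8 and 50.2, 46.5, 48.0 and 45.2 for groups 9 to 13. In CK and CytoD+CK the HoxA sum of the high numbers was below that of Ctrl, and in CytoD the sum of the low ones was above it. These shares and sums were not tested.

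**Figure D1:**
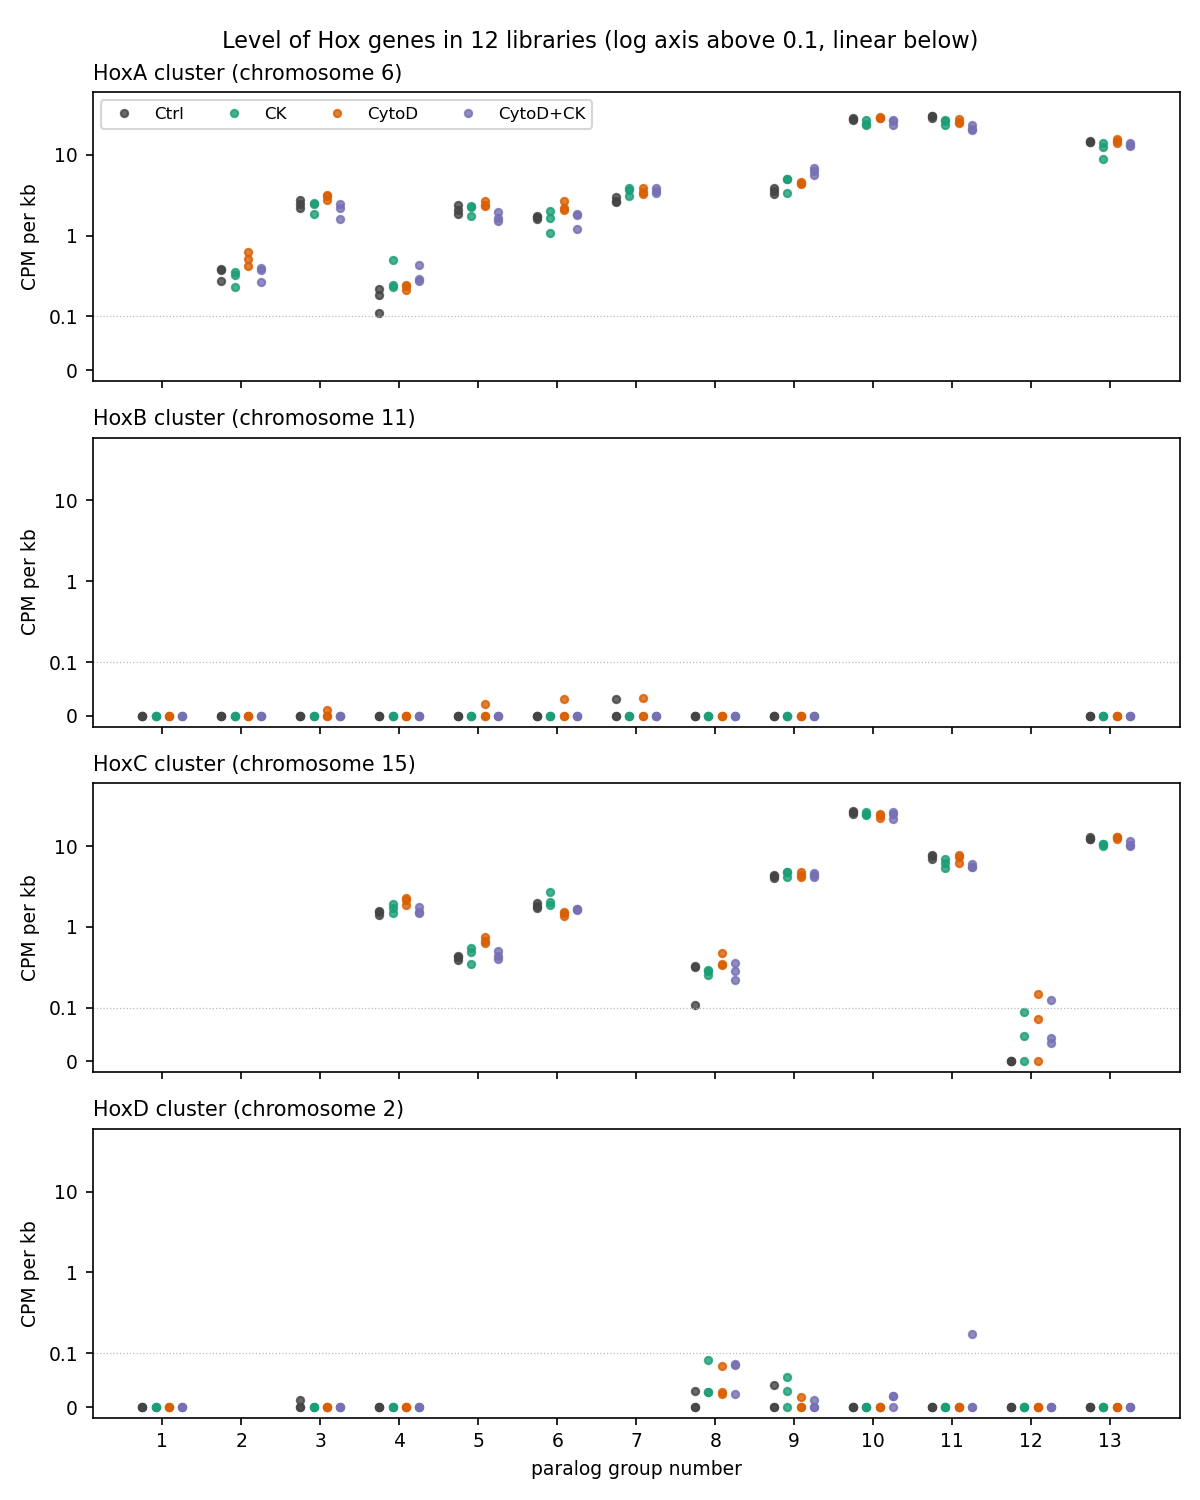
Level of Hox genes in each of 12 libraries, in CPM per kb (log axis above 0.1, linear below), by cluster and paralog number. Hoxa10, Hoxa11, Hoxc10, Hoxa13 and Hoxc13 lie highest, while every HoxB point lies below 0.1 and the HoxD points do so with 1 exception, Hoxd11 in CytoD+CK replicate 3.

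The HoxB cluster (chromosome 11, 96194361 to 96368253) gave 10 counts over all 10 genes and 12 libraries, and 6 of its genes had none. The HoxD cluster (chromosome 2, 74668310 to 74765142) gave 74 counts over 9 genes, and 4 genes had none. HoxA gave 126608 and HoxC 64436. Of the HoxD counts 40 were from Hoxd8, spread over 10 libraries, and 18 from Hoxd9 in 5 libraries. All 10 counts of Hoxd11 were in CytoD+CK replicate 3, where its level was 0.175 CPM per kb. Hoxc12 had 26 counts in 7 libraries, none of them Ctrl. A count of 0 allows up to 3 counts, which in the shallowest library is 0.0170 CPM per kb for Hoxb3 and 0.0483 for Hoxb13, counting error only.

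The nearest tested gene on each side of the quiet clusters is given. Each was picked from rows that had passed the filter on low counts, so that it had counts was set by this choice. Within 500000 bases of HoxD, 1 of 1 row on the Mtx2 side and 1 of 3 rows on the Lnp side were tested. For HoxB it was 11 of 16 rows on the Atp5g1 side and 6 of 8 on the Skap1 side. Beside HoxD, Mtx2, 60670 bases away, was at 33.7 ± 0.22 CPM per kb in Ctrl, and Lnp, 89362 bases away, at 4.58 ± 0.19. Beside HoxB, Atp5g1, 118667 bases away, was at 90.6 ± 4.6. Skap1, nearer to HoxB at 96338 bases, was at only 0.201 ± 0.014. Rows of a microRNA gene, Mir684-1, span both clusters in the table and hold no counts. These spans reach far beyond the clusters, from 75065907 to 115523216 on chromosome 11 and from 36389911 to 80628790 on chromosome 2. Of the 750 and 241 other rows inside them 63.3% and 56.8% were tested, against 57.9% of all rows. Some Hox rows overlap: Hoxa3 spans Hoxa4, Hoxa5 and Hoxa6, and Hoxa11 shares 525 bases with its antisense gene. How such reads, or those of either strand, were assigned is not given in the sources used here.

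The clusters also carry microRNAs, and those of the miR-196 and miR-10 families are shown because members of 1 seed family lie in different clusters. Seeds (bases 2 to 8) are in capitals, and sequences are from RefSeq.
mmu-miR-196b-5p (HoxA): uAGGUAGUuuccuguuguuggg
mmu-miR-196a-5p (HoxC, and a copy in HoxB): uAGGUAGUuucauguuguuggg
mmu-miR-10a-5p (HoxB): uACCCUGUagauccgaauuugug
mmu-miR-10b-5p (HoxD): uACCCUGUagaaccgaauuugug
The miR-196 pair shares the seed AGGUAGU and is known to target Hox transcripts, among them Hoxb8, while the miR-10 pair shares ACCCUGU. Over 12 libraries the row of Mir196b (chromosome 6) had 96 counts, that of Mir196a-2 in HoxC had 10, and those of Mir196a-1 and Mir10a in HoxB and of Mir10b in HoxD had 0. A further microRNA row, Mir615 in HoxC, belongs to neither family and had 6 counts. These rows count reads of the hairpin locus in this library type and do not measure mature microRNA.

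Of the 19 tested Hox genes, 7 were called (edgeR quasi-likelihood test, Benjamini-Hochberg adjusted p under 0.05) in at least 1 of the 3 comparisons with Ctrl. That is 36.8% of them, against 64.1% of all genes tested. These comparisons share their control libraries. The other 12 were not called against Ctrl. With standard errors (SE) of 0.074 to 0.41, small changes of the low genes were not detectable. Every called pair of groups below had no overlap between its libraries, but this did not set calls apart. In CytoD against Ctrl, Hoxa2, Hoxa3, Hoxa6, Hoxa9, Hoxc6, Hoxc8 and Hoxc10 had no overlap either and were not called. The share of all genes without overlap was not computed, so lack of overlap is a description only.

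**Figure D2:**
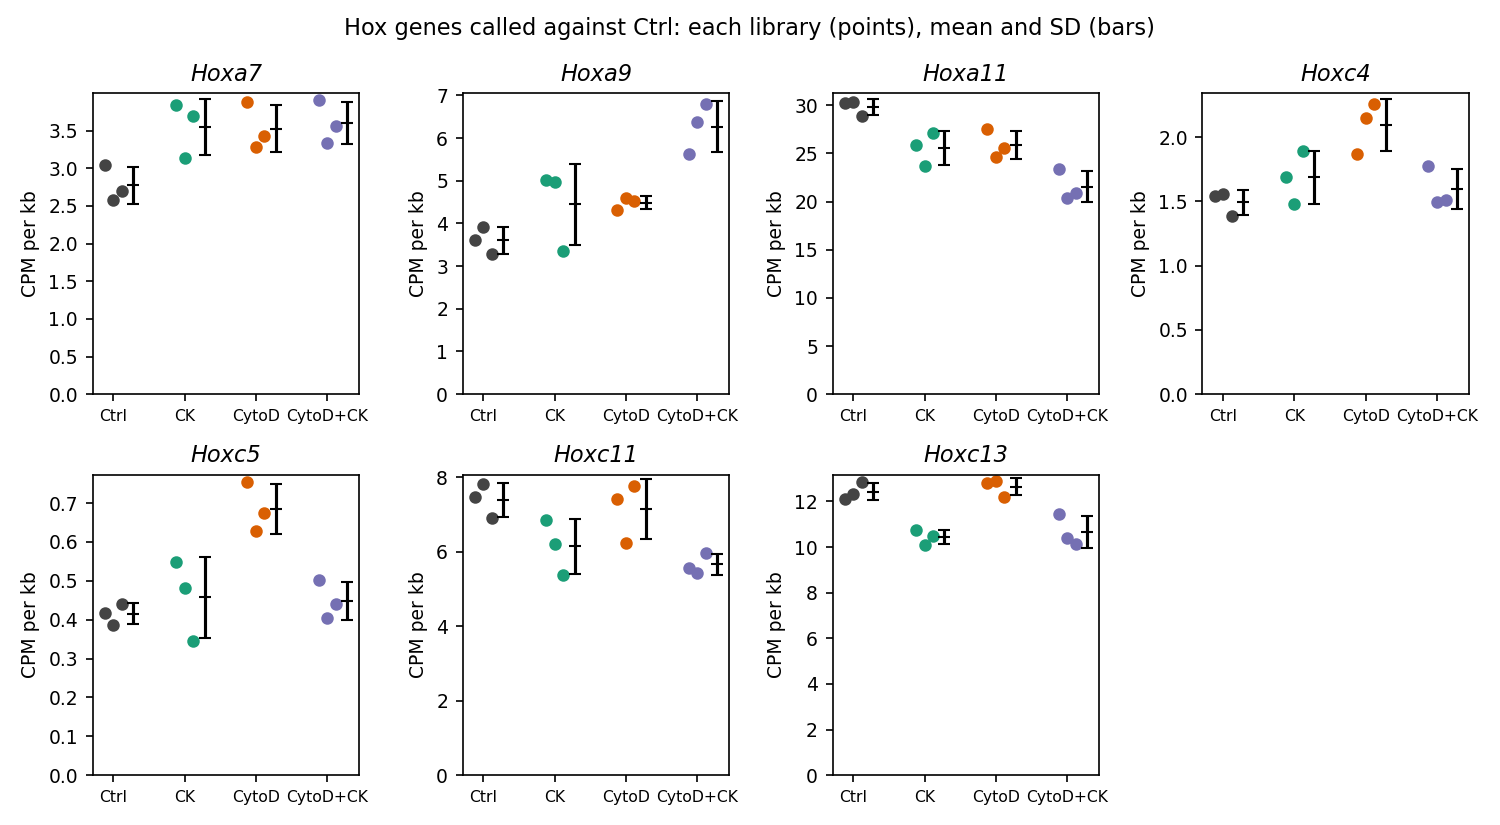
CPM per kb of the 7 Hox genes called against Ctrl in each library (points), with the mean and SD of 3 libraries (bars). Hoxa11 is lowest in CytoD+CK (20.4 to 23.4) and Hoxa9 is highest there (5.63 to 6.80), both apart from Ctrl.

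With cytochalasin D alone, Hoxc5, Hoxc4 and Hoxa7 were higher and Hoxa11 was lower than in Ctrl. The 4 calls are 21.1% of the 19, against 37.9% of all genes tested. Calls of higher expression were 3 (19.1% of all genes) and of lower 1 (18.9% of all genes). Leaving out Ctrl replicate 2, Ctrl replicate 3, CytoD replicate 2 or CytoD replicate 3 left 1, 1, 2 and 1 calls. The median absolute log2 fold change was 0.28 in the Hox genes and 0.26 in all genes, so the size of change was close to that of all genes while calls were fewer.

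Hoxc5, a cervical and thoracic Hox gene, was at 0.418, 0.387 and 0.440 CPM per kb in Ctrl and at 0.753, 0.627 and 0.674 in CytoD. All 3 CytoD libraries were above Ctrl, with a log2 fold change of 0.72 (SE 0.20, edgeR adjusted p = 0.0135). Without Ctrl replicate 2 the adjusted p was 0.0502. Hoxc4, its neighbour in the cluster, was at 1.54, 1.56 and 1.38 in Ctrl and at 1.87, 2.15 and 2.26 in CytoD. Again every CytoD library was higher, with a log2 fold change of 0.49 (SE 0.14, edgeR adjusted p = 0.0147), which became 0.0742, 0.0502 and 0.0642 without Ctrl replicate 3, CytoD replicate 2 or CytoD replicate 3.

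Hoxa7, which patterns thoracic segments, was called higher in every comparison with Ctrl. It was at 3.05, 2.58 and 2.70 CPM per kb in Ctrl, 3.84, 3.13 and 3.69 in CK, 3.88, 3.28 and 3.42 in CytoD, and 3.90, 3.34 and 3.56 in CytoD+CK. The lowest treated library (3.13) lay just above the highest Ctrl library (3.05), and the treated groups overlapped each other. The log2 fold changes were 0.36 (CK, adjusted p = 0.0283), 0.35 (CytoD, 0.0352) and 0.38 (CytoD+CK, 0.0193), each with an SE of 0.12 in edgeR. All 3 calls were lost without Ctrl replicate 2 (0.103, 0.124 and 0.0766) or Ctrl replicate 3 (0.112, 0.114 and 0.0853). The CK call was also lost without CK replicate 1 (0.0831) or 3 (0.0922), the CytoD call without CytoD replicate 1 (0.129) or 3 (0.0674), and the CytoD+CK call without its replicate 1 (0.0663). With no filter on low counts the CK and CytoD calls were lost (0.0503 and 0.0528). With only the groups compared in the fit the CK call was lost (0.0785). In every group replicate 1 was highest and replicate 2 lowest. With replicate number as a block in edgeR the CK, CytoD and CytoD+CK calls were kept (adjusted p 0.00848, 0.0108 and 0.00507).

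Hoxa11 was lower in each treated group. It was at 25.9, 23.7 and 27.1 CPM per kb in CK, 27.5, 24.6 and 25.5 in CytoD, and 23.4, 20.4 and 20.9 in CytoD+CK, against the Ctrl values of 28.9 to 30.4 given above. The single treatments overlapped each other, and all 3 CytoD+CK libraries lay below both. Against Ctrl it fell by 0.20 on the log2 scale in CytoD (adjusted p = 0.0490), 0.22 in CK (0.0320) and 0.47 in CytoD+CK (SE 0.076, 0.000232, edgeR). The CytoD+CK call held in each of 12 alternatives (largest adjusted p 0.00209). The CytoD call was lost without any 1 Ctrl library (0.0736 to 0.127) or without CytoD replicate 2 (0.166) or 3 (0.126), and with no filter on low counts (0.075). The CK call was lost without Ctrl replicate 1 (0.0552) or 2 (0.0959) or CK replicate 1 (0.0510) or 2 (0.101), and with only the groups compared in the fit (0.0704). Hoxa11as, the antisense gene, was at 27.3 ± 0.93 in Ctrl, 26.2 ± 3.2 in CK, 22.9 ± 0.67 in CytoD and 19.6 ± 0.44 in CytoD+CK. It was called lower in CytoD and in CytoD+CK, and reads of the pair cannot be told apart in the bases they share.

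With CK666 alone the calls were Hoxa7 higher and Hoxa11 and Hoxc13 lower. That is 15.8% of 19, against 41.1% of all genes (22.5% higher, 18.7% lower), with a median absolute log2 fold change of 0.19 in the Hox genes and 0.28 in all genes. With RLE size factors or with halved counts the split was 1 higher and 5 lower, and with DESeq2 1 higher and 6 lower. Without Ctrl replicate 2 there was 1 call, and without CK replicate 3 there were 3, of which 2 were the same genes. Hoxc13 was at 12.1, 12.3 and 12.8 CPM per kb in Ctrl, 10.7, 10.1 and 10.48 in CK, 12.8, 12.9 and 12.2 in CytoD, and 11.5, 10.4 and 10.1 in CytoD+CK. Both groups with CK666 lay below both groups without it, with no overlap. In CK it fell by 0.25 on the log2 scale against Ctrl (SE 0.066, edgeR adjusted p = 0.00857), in each of 12 alternatives (largest adjusted p 0.0433). In CytoD+CK it fell by 0.22 (adjusted p = 0.0143), a call lost without CytoD+CK replicate 2 (0.0600) or 3 (0.0687). In CytoD alone the log2 fold change was 0.03 (adjusted p = 0.787).

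With both compounds Hoxa7 and Hoxa9 were higher than in Ctrl and Hoxa11, Hoxc11 and Hoxc13 lower. These 5 calls are 26.3% of 19, against 46% of all genes (24.4% higher, 21.6% lower), and the median absolute log2 fold change was 0.19 in the Hox genes and 0.31 in all genes. Without Ctrl replicate 2 or CytoD+CK replicate 2 there were 3 calls. Hoxa9, a posterior gene that also acts in blood progenitors, was at 3.62, 3.91 and 3.27 CPM per kb in Ctrl, 5.03, 4.97 and 3.35 in CK, 4.32, 4.61 and 4.53 in CytoD, and 5.63, 6.38 and 6.80 in CytoD+CK. Each CytoD+CK library was above all 9 others, and CK replicate 3 lay within Ctrl. Against Ctrl the log2 fold change was 0.80 (SE 0.14, edgeR adjusted p = 0.000467) and the call held in each of 12 alternatives (largest 0.00367). In CytoD alone it was 0.32 (0.0962) and in CK alone 0.30 (0.106). Hoxc11, which acts in the hindlimb and lower trunk, was at 7.48, 7.81 and 6.90 in Ctrl and 5.58, 5.43 and 5.98 in CytoD+CK. It was lower in all 3 libraries, by a log2 fold change of -0.39 (SE 0.12, edgeR adjusted p = 0.0195), which became 0.0696 without Ctrl replicate 2 and 0.0688 without CytoD+CK replicate 2.

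**Figure D3:**
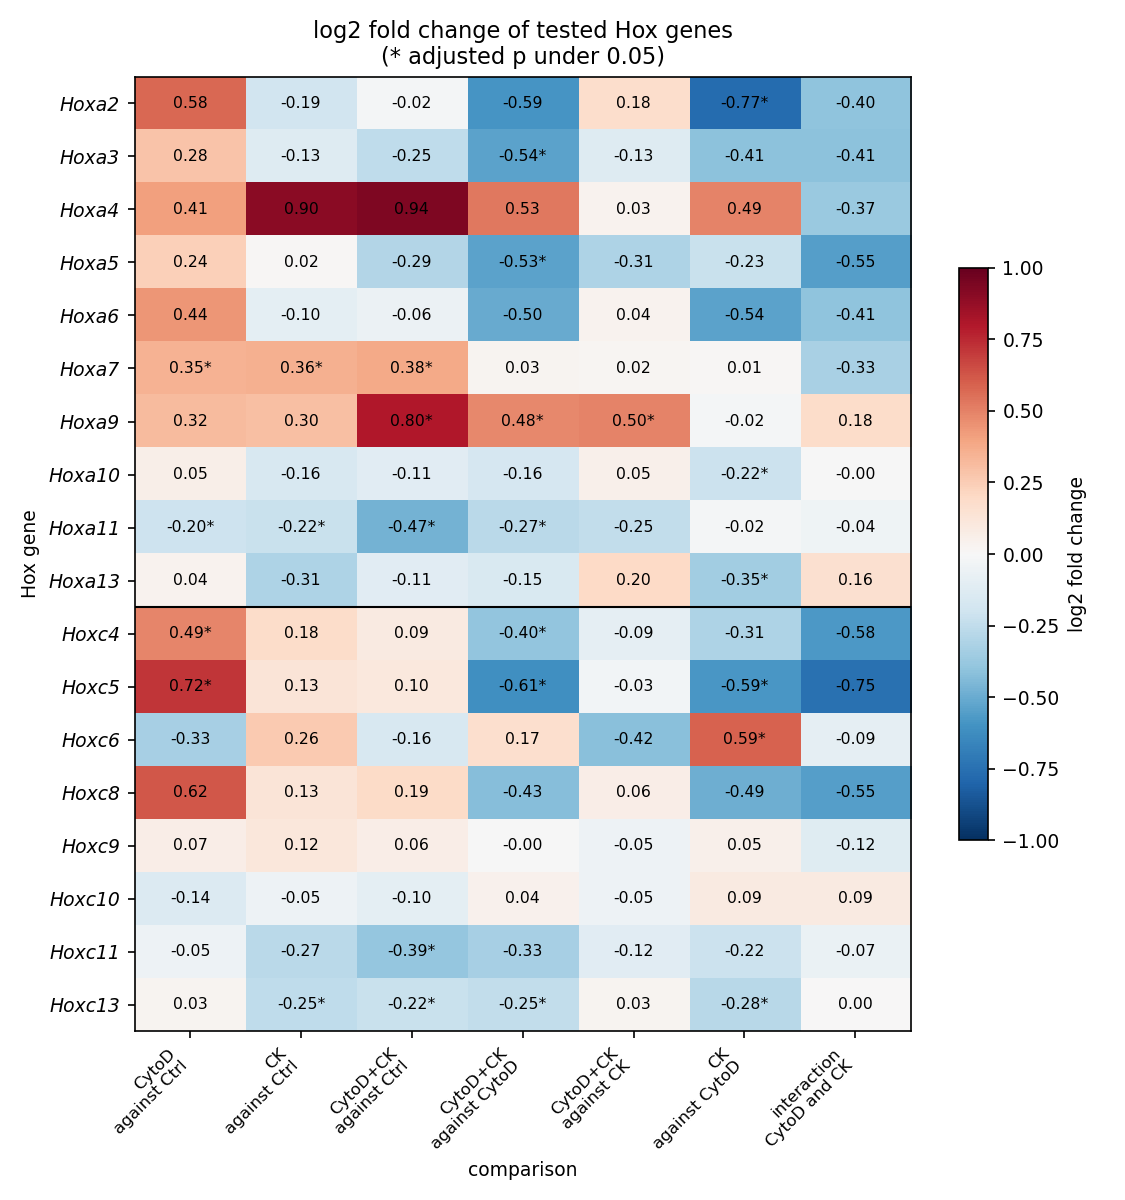
Log2 fold change of tested Hox genes (rows) in 7 comparisons (columns), with an asterisk at an edgeR adjusted p under 0.05. Hoxa7 and Hoxa11 are called in every comparison with Ctrl, in opposite directions, and none is called for the interaction.

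When CK666 was added to cytochalasin D (CytoD+CK against CytoD) 6 Hox genes were lower and 1 higher, or 36.8% of 19 against 30.1% of all genes (15.8% higher, 14.3% lower). The median absolute log2 fold change was 0.40 in the Hox genes and 0.22 in all genes. Hoxa3, Hoxa5, Hoxc4 and Hoxc5, of the neck and upper trunk groups, fell by 0.54, 0.53, 0.40 and 0.61 on the log2 scale, Hoxa11 by 0.27 and Hoxc13 by 0.25. Hoxa9 was higher by 0.48. Without CytoD+CK replicate 2 none of the 7 was called in edgeR, where the adjusted p of the 7 lay between 0.0586 and 0.147. Without CytoD+CK replicate 3, CytoD replicate 1 or CytoD replicate 3 there were 2, 3 and 2 calls, of which 1, 2 and 2 were among the 7. Without CytoD replicate 2 the calls of Hoxc4 (0.125), Hoxc5 (0.0534) and Hoxc13 (0.0545) were lost. The Hoxc4 call was also lost with no filter on low counts (0.0591) and with replicate number as a block (0.0548). In CytoD+CK replicate 2, Hoxa3 (1.61 CPM per kb, against 2.49 and 2.19) and Hoxa6 (1.21, against 1.80 and 1.87) were lower than in the other CytoD+CK libraries.

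Comparing the single treatments (CK against CytoD), 6 Hox genes were lower in CK and 1 higher, 36.8% of 19 against 39.8% of all genes (22.9% higher, 16.8% lower), with a median absolute log2 fold change of 0.31 in the Hox genes and 0.27 in all genes. Hoxc6, a thoracic gene, was at 2.67, 2.04 and 1.89 CPM per kb in CK and 1.37, 1.54 and 1.47 in CytoD. Every CK library was higher, with a log2 fold change of 0.59 (SE 0.15, edgeR adjusted p = 0.00786). Calls of Hoxc6 and Hoxc13 (-0.28) held in each of 12 alternatives, with largest adjusted p of 0.0437 and 0.0299. Those of Hoxa2 (-0.77), Hoxa10 (-0.22), Hoxa13 (-0.35) and Hoxc5 (-0.59) did not. Without CytoD replicate 1, 2 or 3 there were 4, 3 and 3 calls. Hoxa2 was also lost without CK replicate 1 (0.0652) or 2 (0.133), Hoxa10 without CK replicate 2 (0.0994) and Hoxc5 without CK replicate 3 (0.112). With only the groups compared in the fit Hoxa2 (0.0763), Hoxa10 (0.0697), Hoxa13 (0.107) and Hoxc5 (0.0717) were lost. With no filter on low counts Hoxa2 was lost (0.06).

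Adding cytochalasin D to CK666 (CytoD+CK against CK) gave 1 call, Hoxa9 with a log2 fold change of 0.50 (SE 0.14, edgeR adjusted p = 0.0365), or 5.26% of 19 against 11.6% of all genes (4.43% higher, 7.17% lower). The median absolute log2 fold change was 0.09 in the Hox genes and 0.18 in all genes. The call was lost without CytoD+CK replicate 2 (0.110) or 3 (0.146) and with only the groups compared in the fit (0.172). For the interaction, the log2 change with CytoD when CK666 was there less the change without it, edgeR called 0 of 19 Hox genes (14.3% of all genes, 6.63% higher and 7.67% lower). At an unadjusted p under 0.05 there were 3: Hoxc4 with -0.58 (adjusted p = 0.0688), Hoxc5 with -0.75 (0.1005) and Hoxa5 with -0.55 (0.105). DESeq2 called 1, Hoxc4. Without CK replicate 3 Hoxa5 and Hoxc5 were called (0.0362 and 0.0326), and without CK replicate 2 there was 1 call. Hoxa4, Hoxa6, Hoxc8, Hoxc9 and Hoxc10 were called in none of the 7 comparisons.

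**Figure D4:**
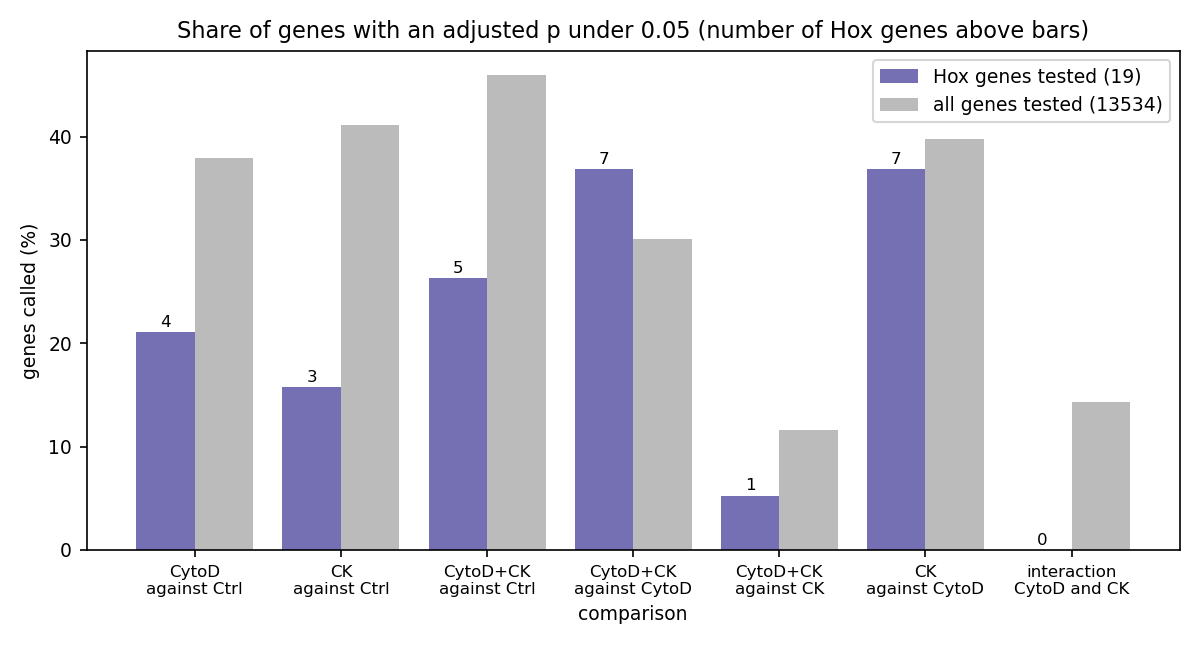
Percent of the 19 tested Hox genes and of all 13534 tested genes with an edgeR adjusted p under 0.05 in each comparison, with the number of Hox genes above the bars. The Hox share is below that of all genes in 6 comparisons and above it in CytoD+CK against CytoD (36.8% against 30.1%).

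Hox proteins bind DNA together with homeodomain partners of the Pbx, Meis and Pknox families, and 8 of 9 such genes were tested. Against Ctrl 1 rose and 1 fell with CytoD, 2 rose and 3 fell with CK, and 1 rose and 3 fell with CytoD+CK, which is 25%, 62.5% and 50% of the 8. Of all genes tested 37.9%, 41.1% and 46% were called with CytoD, CK and CytoD+CK, the reference for this list and those below. Pknox2 was at 9.77, 9.05 and 8.40 CPM per kb in Ctrl, 6.23, 5.74 and 5.72 in CK, 8.57, 8.94 and 8.67 in CytoD, and 3.89, 5.12 and 4.46 in CytoD+CK. Both groups with CK666 lay below both without it, and it fell by 0.62 in CK and 1.01 in CytoD+CK on the log2 scale (edgeR adjusted p = 0.000203 and 2.16e-06). Pbx3 was at 8.46 ± 0.16 in Ctrl and fell by 0.65, 0.46 and 0.82 in CytoD, CK and CytoD+CK. These calls of Pknox2 and Pbx3 held in each of 12 alternatives. Pbx2 was at 17.8 ± 0.26 in Ctrl and rose by 0.33, 0.41 and 0.33 in the same order. Meis1 rose by 0.37 in CK, from 1.70 to 2.20, and Meis2 was called in no comparison with Ctrl (adjusted p 0.153 to 0.962).

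Retinoic acid, made by Aldh1a2 and removed by Cyp26b1, is a known inducer of Hox genes of low number. Of its 18 supply and receptor genes 11 were tested, and 3 rose and 1 fell with CytoD, 2 rose and 5 fell with CK, and 3 rose and 5 fell with CytoD+CK (36.4%, 63.6% and 72.7%). Aldh1a2 was at 359, 329 and 343 CPM per kb in Ctrl, 99.1, 77.3 and 71.6 in CK, 328, 314 and 315 in CytoD, and 98.9, 106 and 99.8 in CytoD+CK. The CK666 groups were far below the others, with log2 fold changes against Ctrl of -2.06 (SE 0.10, edgeR adjusted p = 2.88e-08) and -1.76 (SE 0.10, 4.06e-08). Cyp26b1 was at 21.2 ± 2.4 in Ctrl, 12.4 ± 1.8 in CK, 34.4 ± 2.2 in CytoD and 27.5 ± 2.5 in CytoD+CK, all 3 differences from Ctrl being called. Dhrs3, which turns retinal back to retinol, fell by 0.52, 0.81 and 1.20 on the log2 scale in CytoD, CK and CytoD+CK.

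**Figure D5:**
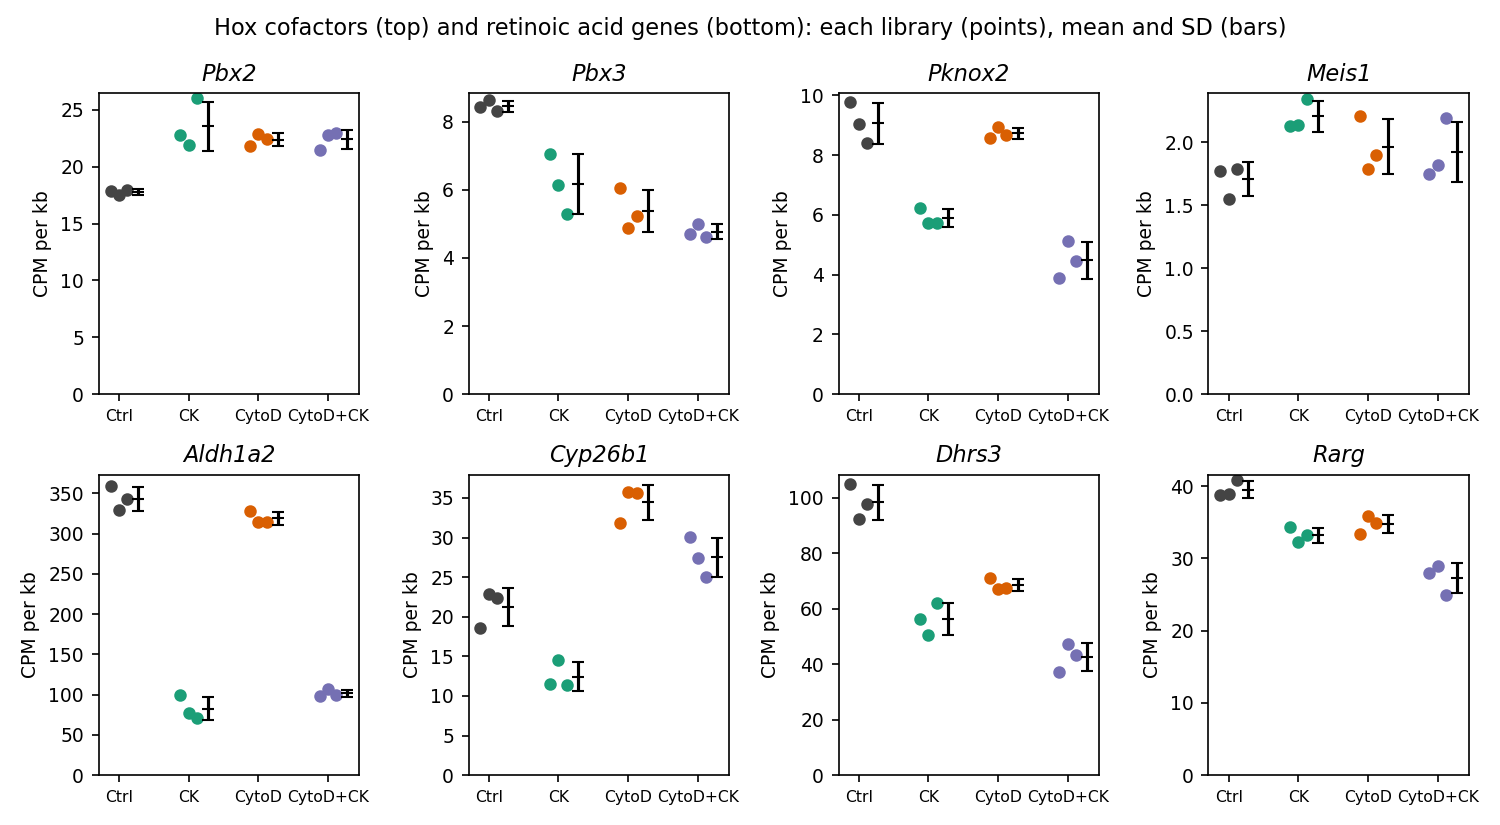
CPM per kb of 4 Hox partner genes (top) and 4 retinoic acid genes (bottom) in each library (points), with the mean and SD of 3 libraries (bars). Aldh1a2 and Pknox2 are lower in both groups with CK666, and Cyp26b1 is highest in CytoD (34.4).

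Polycomb proteins keep Hox genes silent and trithorax proteins keep them active. All 26 Polycomb genes listed were tested: 5 rose and 7 fell with CytoD, 5 rose and 3 fell with CK, and 4 rose and 7 fell with CytoD+CK. That is 46.2%, 30.8% and 42.3%, against 37.9%, 41.1% and 46% of all genes. Ezh2, which writes the repressive H3K27 methyl mark, was at 8.97 ± 0.81 CPM per kb in Ctrl, 8.26 ± 0.15 in CK, 6.23 ± 0.37 in CytoD and 5.34 ± 0.25 in CytoD+CK, and fell by 0.53 and 0.75 on the log2 scale in the groups with CytoD. Phf19, which helps recruit that enzyme, fell by 1.80 in CytoD+CK, while Jarid2, another partner of it, rose by 0.60, 0.46 and 0.81 in CytoD, CK and CytoD+CK. Bmi1 was at 34.8, 33.6, 35.7 and 36.3 in Ctrl, CK, CytoD and CytoD+CK and was not called. Among 11 trithorax and H3K27 demethylase genes, 2 rose and 1 fell with CytoD, 1 rose and 0 fell with CK, and 2 rose and 1 fell with CytoD+CK (27.3%, 9.09% and 27.3%). Kmt2a (row Mll1), a methyltransferase that maintains Hox expression, was not called against Ctrl.

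Of 8 rows of Cdx genes and other genes listed as regulators of Hox clusters 5 were tested. Of these, 1 rose and 2 fell in each of the comparisons with Ctrl (60% of the 5). Gmnn, whose protein geminin binds Hox and Polycomb proteins, fell by 1.01, 0.42 and 1.47 on the log2 scale in CytoD, CK and CytoD+CK. Of 11 rows of noncoding genes in the clusters 5 were tested, with 1 up and 1 down in CytoD, 1 up in CK and 2 down in CytoD+CK (40%, 20% and 40%). The Mir196b call (-1.35, edgeR adjusted p = 0.0471) was kept in 1 of the 10 alternatives that gave a value. Its row, of 85 bases, had only 96 counts over 12 libraries. Hotair, a HoxC noncoding RNA, was at 0.414 ± 0.030 in Ctrl and was not called. None of 8 ParaHox and related homeobox genes was tested, and their summed level was at most 0.0891 in any library.

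Position factors outside the Hox clusters gave a limited picture. Of 32 limb, girdle and skeletal factors 22 were tested: 6 rose and 1 fell with CytoD, 3 rose and 6 fell with CK, and 2 rose and 9 fell with CytoD+CK. That is 31.8%, 40.9% and 50%, against 37.9%, 41.1% and 46% of all genes. Pitx1, a hindlimb gene, was at 9.61, 10.7 and 10.7 CPM per kb in Ctrl, and it fell by 0.49 in CytoD+CK (7.76, 6.94 and 7.28). Tbx4 of the hindlimb and Tbx5 of the forelimb had 2 and 30 counts over 12 libraries. Prrx1, a gene of limb and skeletal mesenchyme, was at 98.3 ± 5.0 in Ctrl and fell by 0.58 in CK and 0.45 in CytoD+CK, with CK replicate 3 the lowest library (49.5). Tbx15, which acts in the skeleton of the trunk and limb girdles, fell by 0.31 and 0.33 in the same groups. Lhx9, a factor of early limb mesenchyme, rose by 1.71, 2.04 and 2.81 in CytoD, CK and CytoD+CK from 0.309 in Ctrl. Of 15 factors of the head and forebrain, where mesenchyme lacks Hox expression, 7 were tested: 2 fell with CytoD, none was called with CK and 1 fell with CytoD+CK (28.6%, 0% and 14.3%).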

How the data were processed

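RNA-seq of 12 libraries was analysed from a deposited gene table. Per the file headers, the authors' count columns give reads per gene, and the deposited RPKM columns divide those counts by gene length and by a library total 1.122 to 1.162 times the gene count sum. The submitters' processing notes name CASAVA 1.9, TopHat 12.0.6, HTSeq and the build hg19. All 39 Hox rows overlap the mouse gene of that name in GRCm38, so coordinates are given in that build. Every count is even. No source used here says whether both reads of a pair were counted. If so, the limit of 3 counts is too low.

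Rows kept by edgeR's filterByExpr (minimum count 10) were fitted with edgeR 4.0.16 (R 4.3.3): TMM scaling, 1 mean per group, all 12 libraries, 2-sided quasi-likelihood tests, Benjamini-Hochberg adjustment over 13534 genes in each of 7 comparisons, called at 0.05. No adjustment was made across comparisons. The SE is the log2 fold change over the square root of F. The common biological coefficient of variation was 0.115. CPM per kb is TMM-scaled and uses the table's length column. The code was tested on simulated data. Alternatives were RLE size factors, DESeq2 1.42.0, no filter on low counts, a replicate block, only the groups compared, halved counts and leaving out each library. The members, gene lists and tests were chosen with earlier results of these data known. Values in every library are given for Hox genes called against Ctrl and some high or contrasting ones, and list genes named are among those with the largest called changes, plus Meis1, Meis2, Ezh2, Bmi1, Kmt2a, Tbx15, Prrx1, Tbx5 and Pitx1. Other Hox genes and list genes given in full were chosen after their values were seen. A few genes of the clusters and lists are counted but not reported here by name or value.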

Additional observations from a re-analysis of the deposited data

How the results depend on the processing

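Of 27 Hox calls, 6 held under every alternative and none changed direction. With no filter on low counts CytoD against Ctrl gave 2 Hox calls, and with only the groups compared it gave 7. CK against Ctrl gave 6 with RLE size factors, 7 with DESeq2, 6 with halved counts and 1 with only the groups compared. CytoD+CK against CK gave 2 with DESeq2 and 0 with only the groups compared. CK against CytoD gave 3 with only the groups compared, and DESeq2 gave 1 for the interaction. The causes were not tested. Where only the compared groups were fitted, fewer libraries entered the fit, and the filter, scaling and estimate of spread were also redone. Leaving out 1 library gave 1 to 3 calls for CytoD against Ctrl, 1 to 4 for CK against Ctrl, 3 to 5 for CytoD+CK against Ctrl, 0 to 7 for CytoD+CK against CytoD, 0 to 2 for CytoD+CK against CK, 3 to 7 for CK against CytoD and 0 to 2 for the interaction. Expressed genes numbered 14 or 15 when 1 Ctrl library was left out, 15 at a threshold of 0.5 RPKM or by CPM per kb, and 10 at 2 RPKM.

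Deviations of same-numbered libraries correlated at -0.079 to 0.256 (median 0.070, over 0.1 in 4 of 18 pairs), and those of differently numbered ones at -0.184 to 0.174 (median -0.034, over 0.1 in 3 of 36). Not every same-numbered pair was over 0.1, so the libraries were treated as unpaired. Sample titles carry the same replicate numbers in all 4 groups, and these correlations cannot decide whether such libraries shared a preparation. With replicate number as a block the calls were 4, 3, 5, 6, 2, 7 and 0 in the order of the text's comparisons (CytoD, CK and CytoD+CK against Ctrl, CytoD+CK against CytoD, against CK, CK against CytoD, interaction). Changes in HoxB, HoxD and Hoxc12 were not detectable at this depth.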
